A study of Homo sapiens with 6 samples.

Results

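OCI-AML3 is an established human acute myeloid leukemia (AML) line that carries a heterozygous NPM1 mutation, and its mutant protein (mtNPM1) sits largely in the cytoplasm instead of the nucleolus. Cells were transfected with a control guide (sgNeg) or with a guide against the mutant NPM1 (sgNpm1A) and grown for 3 days per the labels, while the study's text gives 5 days. Both groups carry the line's other mutations, in DNMT3A and NRAS, and both come from the same line. H3K27Ac, H3K4me3 and input DNA were profiled by ChIPmentation, which tagments the precipitated chromatin, and 4 of the 6 samples have a peak list here. The H3K4me3 lists, 2 of these 4, were taken by their antibody label, with 353578 peaks in sgNeg and 106629 in sgNpm1A on chromosomes 1 to 22 and X. Each group had 1 library, so no difference between groups was tested and no p-value is given. The intervals below are 95% Wilson intervals over windows or peaks and cover counting error only.

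H3K4me3 is trimethylation of lysine 4 on histone H3. It is laid down by SET1 and MLL enzymes at the first nucleosomes downstream of active gene starts, and most strongly at promoters rich in CG dinucleotides, where CXXC-domain proteins bind unmethylated CG. Genes that every cell uses carry broad peaks of the mark, whereas tissue-restricted genes that are off, such as those for odor receptors, normally lack it. In AML with mtNPM1, MLL1 and its partner menin keep HOXA, HOXB and MEIS1 genes on. An H3K4me3 library is therefore recognised by its peaks at gene starts, and this property was measured first.

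The sequences below are from the targeted gene and from promoters with a sgNpm1A peak within 1 kb of the start. Such a peak need not cover the printed bases. It did at ZNF595, whereas at BRD9, TRIP13, LOC105373071 and PCDHAC2 it lay outside them, as did the sgNeg peak of NPM1. Each runs 5′ to 3′ on the gene's strand over 300 bases, from 250 before to 50 from the start onward, as RefSeq gives it on GRCh38.p14, with every CG dinucleotide in capitals. NPM1 (chr5:171386866-171387165, plus strand) is the targeted gene. ZNF595 (chr4:53071-53370, plus), BRD9 (chr5:892752-893051, minus) and TRIP13 (chr5:892634-892933, plus) had strong promoter peaks in both lists, and the latter pair are divergent neighbours whose sequences overlap on opposite strands. LOC105373071 (chr22:45866499-45866798, plus), PCDHAC2 (chr5:140966226-140966525, plus) and SFRP5 (chr10:97771950-97772249, minus) had a peak in sgNpm1A alone. The number of CG dinucleotides was 13 for NPM1, 12 for ZNF595, 43 for BRD9, 41 for TRIP13, 37 for LOC105373071, 15 for PCDHAC2 and 28 for SFRP5, against a median of 22 over 13875 coding promoters with a sequence.
NPM1: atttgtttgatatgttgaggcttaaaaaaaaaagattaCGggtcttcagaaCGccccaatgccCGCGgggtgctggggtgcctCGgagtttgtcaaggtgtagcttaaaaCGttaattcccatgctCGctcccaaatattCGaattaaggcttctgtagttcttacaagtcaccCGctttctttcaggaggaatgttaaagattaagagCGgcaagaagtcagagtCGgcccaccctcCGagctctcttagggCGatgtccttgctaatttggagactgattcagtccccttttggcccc
ZNF595: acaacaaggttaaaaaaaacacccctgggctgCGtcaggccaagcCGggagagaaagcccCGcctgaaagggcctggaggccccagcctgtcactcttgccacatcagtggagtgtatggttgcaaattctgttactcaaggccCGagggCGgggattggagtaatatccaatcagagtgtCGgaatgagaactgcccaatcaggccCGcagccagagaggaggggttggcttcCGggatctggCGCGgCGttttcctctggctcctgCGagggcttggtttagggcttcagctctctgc
BRD9: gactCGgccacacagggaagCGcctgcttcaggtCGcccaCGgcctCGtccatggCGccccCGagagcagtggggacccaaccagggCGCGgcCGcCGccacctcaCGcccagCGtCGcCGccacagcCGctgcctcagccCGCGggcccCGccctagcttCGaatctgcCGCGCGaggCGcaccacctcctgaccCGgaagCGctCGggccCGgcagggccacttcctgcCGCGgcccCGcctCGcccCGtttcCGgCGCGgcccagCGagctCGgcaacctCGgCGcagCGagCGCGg
TRIP13: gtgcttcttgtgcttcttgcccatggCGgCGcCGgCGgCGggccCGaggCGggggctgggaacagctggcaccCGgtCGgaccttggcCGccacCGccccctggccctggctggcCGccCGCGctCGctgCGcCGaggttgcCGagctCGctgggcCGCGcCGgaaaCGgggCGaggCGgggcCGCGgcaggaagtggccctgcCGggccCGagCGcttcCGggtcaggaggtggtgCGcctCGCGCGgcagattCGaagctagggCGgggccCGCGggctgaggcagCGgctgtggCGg
LOC105373071: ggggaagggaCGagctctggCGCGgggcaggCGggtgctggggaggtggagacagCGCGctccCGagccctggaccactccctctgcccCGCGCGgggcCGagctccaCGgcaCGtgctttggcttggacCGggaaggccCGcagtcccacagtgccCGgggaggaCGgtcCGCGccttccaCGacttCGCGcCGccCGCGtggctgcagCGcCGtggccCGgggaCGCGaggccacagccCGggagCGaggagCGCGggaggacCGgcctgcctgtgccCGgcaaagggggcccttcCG
PCDHAC2: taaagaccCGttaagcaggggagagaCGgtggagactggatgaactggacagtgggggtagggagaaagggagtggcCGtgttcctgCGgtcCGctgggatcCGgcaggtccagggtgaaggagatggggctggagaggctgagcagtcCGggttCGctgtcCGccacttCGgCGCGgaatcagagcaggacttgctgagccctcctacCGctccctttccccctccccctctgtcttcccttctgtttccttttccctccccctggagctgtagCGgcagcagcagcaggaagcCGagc
SFRP5: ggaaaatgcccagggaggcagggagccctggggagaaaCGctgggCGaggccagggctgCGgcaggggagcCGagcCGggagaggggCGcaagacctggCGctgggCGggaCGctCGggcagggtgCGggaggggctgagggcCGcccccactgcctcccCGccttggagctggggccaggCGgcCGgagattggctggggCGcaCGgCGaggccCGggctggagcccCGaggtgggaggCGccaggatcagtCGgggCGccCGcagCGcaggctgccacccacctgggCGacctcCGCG

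In sgNeg, peaks were enriched at gene starts, where H3K4me3 is known to lie, though most peaks lay elsewhere. Of sgNeg peaks, 4.71% lay within 1 kb of a coding gene start and 51.8% beyond 50 kb. A promoter was taken as 1 kb on either side of the start of a protein-coding gene, and 12718 of 19630 promoters (64.8%, 64.1 to 65.5) overlapped a sgNeg peak. In sgNpm1A 1508 promoters did (7.68%, 7.32 to 8.06). To read these shares against the surroundings, windows of the same length were placed 20 and 50 kb to either side of each gene start. Those windows overlapped a sgNeg peak in 28.3% of cases and a sgNpm1A peak in 11.1%. The sgNeg share at promoters was thus 2.29 times that of the flanking windows, while the sgNpm1A share was 0.691 times it, with the lowest of the 4 window positions at 10.9%. The library labelled sgNpm1A H3K4me3 did not show the promoter enrichment that defines the mark, and its promoters held fewer peaks than the neighbouring DNA.

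The position of peaks around the start made the same contrast. Read along the direction of transcription, sgNeg peaks covered 11.4% of coding gene starts, dipped upstream of them, and rose to 42.2% of genes at 350 bp downstream. At 5 kb the mean of both sides was 4.97%. The sgNeg shape, with a narrow gap at the start and the greater part of the coverage over the first transcribed nucleosomes, is the usual one for H3K4me3. In sgNpm1A the coverage was 1.76% at the start, reached its lowest value of 1.47% at 650 bp upstream, and was 2.57% at 5 kb. Summits, the highest point of each peak, told the same: the fullest 100-bp bin in sgNeg lay 300 to 399 bp downstream with 2129 summits, 7.55 times the mean bin at 4 to 5 kb. No bin of sgNpm1A passed 1.31 times its own 4 to 5 kb mean, and its lowest bin held 37 summits, 0.458 times that mean.

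**Figure D1:**
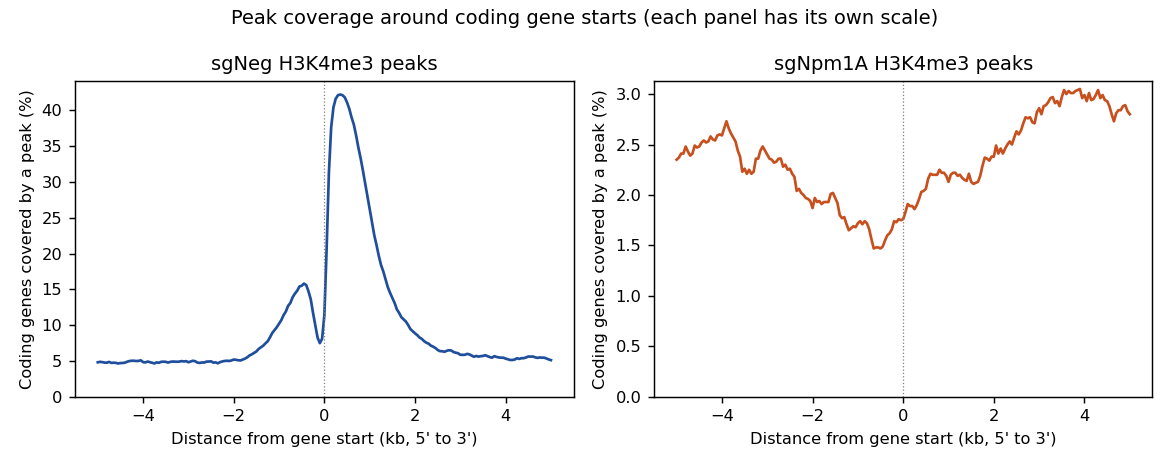
Share of 19630 coding genes covered by a peak (percent, vertical axis) at each distance from the gene start (kb, horizontal axis), for 1 sgNeg and 1 sgNpm1A library on separate scales. The sgNeg curve peaks at 42.2% downstream of the start, and the sgNpm1A curve is lowest, at 1.47%, just upstream of it.

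Peaks were then classed by distance to the nearest coding gene start. Within 1 kb there were 16670 sgNeg and 1669 sgNpm1A peaks, a ratio of 0.100. The ratio was 0.262 at 1 to 5 kb, with 24001 and 6294 peaks, 0.308 at 5 to 50 kb, with 129790 and 39972, and 0.321 beyond 50 kb, with 183117 and 58694. The class within 1 kb makes up 1.21% of the chromosomes' bases, and it held 4.71% of sgNeg peaks and 1.57% of sgNpm1A peaks. Peaks covered 22.4% of the bases of this class in sgNeg and 1.94% in sgNpm1A, whereas beyond 50 kb they covered 2.27% and 1.54%. Coverage in sgNeg fell at each step from the gene start outward, and in sgNpm1A the class within 1 kb was covered less than those at 1 to 5 kb (2.47%) and 5 to 50 kb (2.33%).

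Peak strength separated the lists further. Fold enrichment is the pileup of fragments at the summit over the background, each plus 1, as the peak caller wrote it. Within 1 kb the median fold was 4.78 in sgNeg and 3.56 in sgNpm1A, and the 99th percentile was 13.9 and 6.44. In sgNeg the median fold outside promoters was 3.33 in all 3 other classes, so strong peaks were mainly a property of gene starts. In sgNpm1A the median fold was 3.56 in every class, with no difference between promoters and other DNA. Peaks of at least 8-fold numbered 3238 within 1 kb in sgNeg and 1 in sgNpm1A, against 529 and 81 beyond 50 kb.

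Width ran the other way from distance. Peaks within 1 kb had a median width of 461 bp in sgNeg and 454 bp in sgNpm1A. Beyond 50 kb the medians were 185 and 402 bp, and the narrowest peaks measured 110 and 245 bp, so that the sgNpm1A list had no peak of 200 bp or less where sgNeg had 187970. Among wide peaks of over 1000 and up to 2000 bp, sgNeg had 2956 within 1 kb and sgNpm1A 177, a ratio of 0.0599, whereas beyond 50 kb there were 1365 and 3515, a ratio of 2.58. Over 2000 bp the numbers were 358 and 33 within 1 kb (ratio 0.0922) and 114 and 414 beyond 50 kb (ratio 3.63). Broad H3K4me3 at promoters, a known feature of strongly used genes, was therefore nearly missing from a list that held more broad peaks than sgNeg elsewhere. The widths may not be like for like, because the narrowest peaks differ between the lists. If the narrowest peak is the fragment length that the caller used, each sgNpm1A fragment was drawn longer. How far this raised the ratios above 1 was not tested. In both of these width classes the ratio within 1 kb was below that beyond 50 kb. The widest sgNpm1A peak, 38752 bp at chr21:10699832-10738583, lay beyond 50 kb from any coding gene start.

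**Figure D2:**
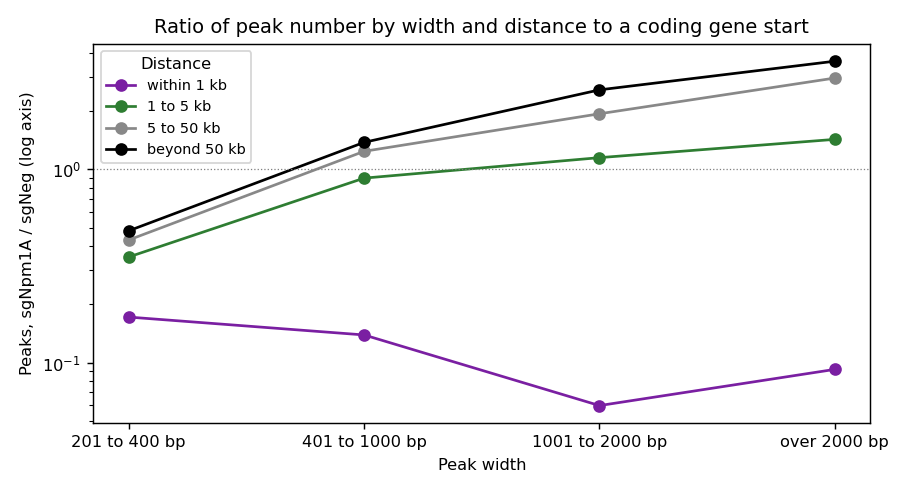
Ratio of the number of sgNpm1A to sgNeg peaks (log axis) by peak width, with 1 line for each distance to the nearest coding gene start. The line for peaks within 1 kb stays below 0.2 at every width, and the line beyond 50 kb rises to 3.63 for peaks over 2000 bp; peaks of 200 bp or less are not drawn because sgNpm1A had none.

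NPM1, the targeted gene, had a sgNeg peak of 2657 bp at chr5:171387993-171390649 with a fold of 10.6 and a pileup of 50. No sgNpm1A peak lay within 1 kb, and the nearest was 34969 bp away with a fold of 3.05. The guide cuts the coding sequence, so a promoter peak does not check the edit.

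Sharing was then followed by the strength of the sgNeg peak. Of the 12718 promoters with a sgNeg peak, 1175 also had a sgNpm1A peak (9.24%, 8.75 to 9.75), which is 5.99% of all promoters. A sgNeg peak alone was present at 11543 promoters (58.8% of all) and a sgNpm1A peak alone at 333 (1.70%). In the flanking windows, 6891 of 22186 with a sgNeg peak also had a sgNpm1A peak (31.1%, 30.5 to 31.7). Promoters with a sgNeg peak thus shared it less often than windows 20 to 50 kb away.

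Strong promoter peaks were the ones least often shared. Among promoters whose sgNeg fold was under 4, 700 of 3268 had a sgNpm1A peak (21.4%, 20.0 to 22.9). The share was 11.8% at a fold of 4 to 6, 2.11% at 6 to 8, 1.76% at 8 to 12 and 3.34% (2.19 to 5.05) at 12 and over. These shares count any sgNpm1A peak in the promoter window. By overlap of the peak itself, the measure used for distant peaks, the shares within 1 kb were 12.2%, 9.09%, 1.95%, 1.88% and 5.48% in the same order. Peaks far from genes went in the opposite direction. Beyond 50 kb, sgNpm1A overlapped 18.8% of sgNeg peaks with a fold under 4, 48.0% at 4 to 6, 71.0% at 6 to 8, 75.2% at 8 to 12 and 81.1% at 12 and over, 60 of 74 peaks. The most enriched sgNeg peaks were therefore mostly overlapped far from genes and mostly not overlapped at gene starts.

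**Figure D3:**
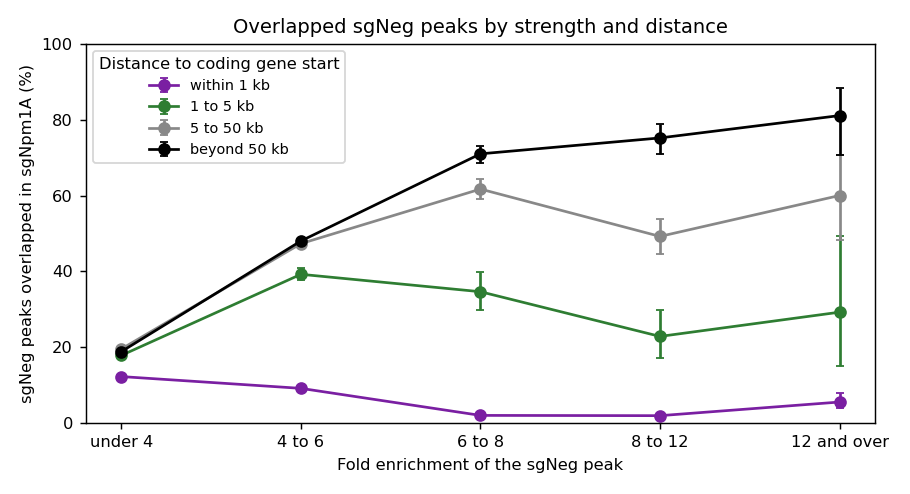
Share of sgNeg peaks overlapped by at least 1 bp of a sgNpm1A peak (percent, vertical axis) against the fold enrichment of the sgNeg peak, by distance to the nearest coding gene start, with 95% Wilson intervals. Peaks within 1 kb fall from 12.2% to between 1.88% and 5.48%, and peaks beyond 50 kb rise from 18.8% to 81.1%.

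Sharing was also counted from the side of sgNpm1A. Of all sgNpm1A peaks 61.2% overlapped a sgNeg peak, with 66.4% within 1 kb and 59.5% beyond 50 kb. Of all sgNeg peaks 22.6% overlapped a sgNpm1A peak, with 7.76% (7.37 to 8.18) within 1 kb and 23.3% beyond 50 kb. Where peaks of both lists overlapped within 1 kb of a gene start, the sgNeg summit lay a median of 198 bp from the sgNpm1A summit, and 29.8% of pairs lay within 100 bp. Beyond 50 kb the median was 166 bp and 34.3% lay within 100 bp, so that overlap at a promoter was no closer than elsewhere.

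Promoter sequence divided the lists. The 13875 promoters with a RefSeq sequence were put in 4 equal groups by their number of CG dinucleotides, with ties at the edges. In sgNeg the share with a peak rose from 35.6% in the group with 0 to 9 CG to 68.3% at 9 to 22, 82.0% at 22 to 32 and 83.0% (81.7 to 84.2) at 32 to 67. In sgNpm1A it fell from 13.1% (12.0 to 14.3) to 7.00%, 4.04% and 3.86% (3.27 to 4.56) in the same order. The flanking windows of these groups varied less, from 24.4% to 31.0% in sgNeg and from 8.85% to 12.7% in sgNpm1A. In the CG-richest group the sgNpm1A share was 0.305 times that of its flanks and in the CG-poorest group 1.35 times. By GC percent the sgNpm1A shares moved less, at 7.12%, 8.99%, 6.77% and 5.10% from the lowest to the highest group, while in sgNeg they rose from 38.4% to 79.4%. Among promoters with a sequence, the median CG number was 26 for those with a sgNeg peak and 10 for those with a sgNpm1A peak. It was 9 both for promoters with peaks in both lists and for those with no peak, so the promoters that sgNpm1A covered had the CG content of unmarked genes.

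**Figure D4:**
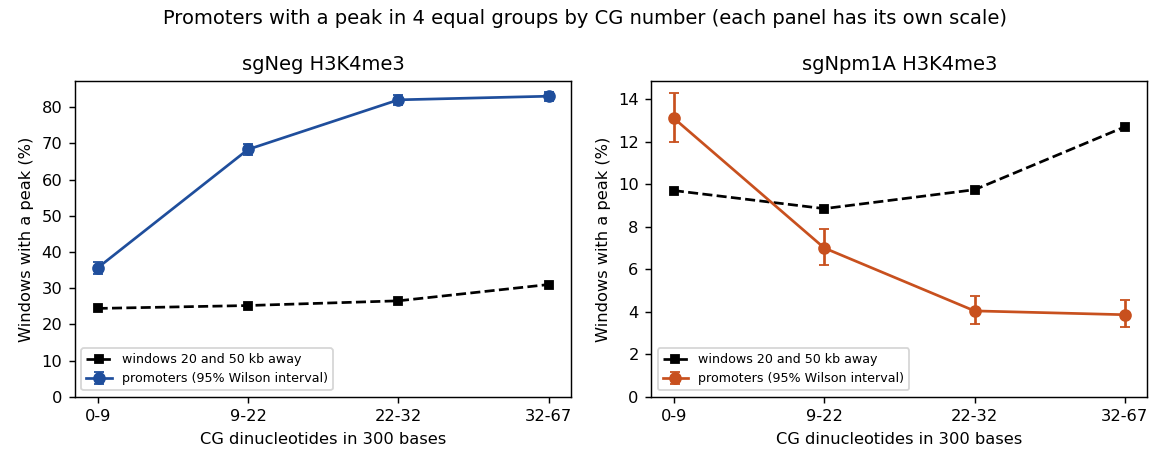
Share of promoters with a peak (percent, vertical axis) in 4 equal groups by CG dinucleotides in 300 bases, for each list on its own scale, with 95% Wilson intervals; dashed lines are windows of the same genes 20 and 50 kb away. The sgNeg share rises from 35.6% to 83.0% and the sgNpm1A share falls from 13.1% to 3.86%, below its flanking windows.

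Gene classes that every cell needs had almost no sgNpm1A peak. Of 86 genes for cytosolic ribosomal proteins, 85 had a sgNeg promoter peak and 2 a sgNpm1A peak (2.33%, 0.64 to 8.09). Over all promoters the shares were 64.8% and 7.68%, and the flanking windows of these genes stood at 15.1% in sgNpm1A. RPL28, of the large ribosomal subunit, had the highest sgNeg fold, 17.1 over 2157 bp, and no sgNpm1A peak. RPL8 had a sgNeg peak of 16.2-fold and had a separate sgNpm1A peak of 3.05-fold and 384 bp at the outer edge of its window. For mitochondrial ribosomal proteins 73 of 77 had a sgNeg peak and 1 a sgNpm1A peak, MRPS7, at 12.1-fold in sgNeg and 3.31-fold in sgNpm1A. MRPS30 led that class in sgNeg with 14.4-fold and had no sgNpm1A peak.

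Energy and protein turnover genes were alike. All 36 genes for respiratory complex I had a sgNeg peak, led by NDUFA10 at 12.3-fold, and 1 had a sgNpm1A peak (2.78%, 0.492 to 14.2). Of 39 proteasome genes 36 had a sgNeg peak, led by PSMB4 at 12.5-fold, and 0 had a sgNpm1A peak, which allows a share of up to 8.97%. Of 55 translation initiation factors 48 had a sgNeg peak, with EIF3B at 16.2-fold, and 1 had a sgNpm1A peak (1.82%, 0.322 to 9.61). That 1 was EIF4E1B, the paralog of the cap-binding protein best known from the germ line, at 3.74-fold in sgNeg and 3.56-fold in sgNpm1A. The sgNpm1A intervals of these lists hold the 7.68% over all promoters, so their counts alone show no deficit against it.

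Nuclear functions followed. Of 55 splicing factors 51 had a sgNeg peak and 0 a sgNpm1A peak, with SRSF2, which binds splicing enhancers, at 16.6-fold in sgNeg. Of 50 genes for building ribosomes in the nucleolus, NPM1's own compartment, 48 had a sgNeg peak and 0 a sgNpm1A peak, against 12.5% of their flanking windows. RRS1, needed for the large subunit, stood at 15.0-fold in sgNeg there. Of 42 DNA replication genes 40 had a sgNeg peak, led by CDT1, which loads the MCM helicase, at 13.1-fold. The 2 with a sgNpm1A peak were ORC5, of the origin recognition complex, at 7.70-fold in sgNeg and 4.32-fold in sgNpm1A, and GINS4, of the replicative helicase, at 7.07-fold and 4.07-fold. The interval of the replication share (4.76%, 1.32 to 15.8) holds the 7.68% over all promoters. Those of splicing factors (up to 6.53%) and ribosome building (up to 7.13%) do not, nor does that of mitochondrial ribosomal proteins (0.23 to 7.00). These intervals do hold the 4.04% and 3.86% of the CG-richer groups of coding promoters. The CG number of these lists was not compared.

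Replication-dependent histone genes had 31 of 69 promoters with a sgNeg peak (44.9%) and 1 with a sgNpm1A peak (1.45%, 0.256 to 7.76). The first share was below the 64.8% over all promoters, and the second interval holds their 7.68%. H2AC6 reached 9.57-fold in sgNeg, and H4C7 had the only sgNpm1A peak, at 2.80-fold, the lowest value in that list. Most of these genes stand close together on chromosome 6, and the flanking windows held a sgNpm1A peak in 1.81% of cases.

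Of the myeloid program, the transcription factors were marked in sgNeg more often than the 64.8% over all promoters and the surface and granule genes less often. Of 36 myeloid transcription factors 31 had a sgNeg peak (86.1%), and 1 (2.78%, against 7.68% over all promoters), CEBPE, which drives granulocyte maturation, had a sgNpm1A peak, at 2.70-fold in sgNeg and 3.31-fold in sgNpm1A. MYC had the highest sgNeg fold of this class, 17.1 over 3658 bp, and no sgNpm1A peak. Of 45 genes for myeloid surface and granule proteins 22 had a sgNeg peak (48.9%) and 2 a sgNpm1A peak (4.44%), led in sgNeg by ELANE, neutrophil elastase, with a peak of 1558 bp. LCN2, an iron-scavenging granule protein, had 3.54-fold in sgNeg and 3.56-fold in sgNpm1A, and CSF1R, the receptor for macrophage colony-stimulating factor, had a sgNpm1A peak of 3.82-fold alone.

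The cell type named in the labels was checked against markers. Of 12 myeloid markers 6 had a sgNeg promoter peak (CEBPA, CSF3R, ELANE, MPO, PTPRC and SPI1), with a median fold of 7.70 and a highest of 16.4, while CD33, CSF1R, FLT3, ITGAM, KIT and LYZ had none. That count was below the 64.8% over all promoters, and the myeloid markers stood apart from the others by the fold of their peaks rather than by their number. Of 10 lymphoid markers 3 had one, with a highest fold of 4.99, and of the 8 erythroid and megakaryocytic, 8 epithelial and mesenchymal and 8 neural and hepatic markers 2, 4 and 1 had one, none above 3.95-fold. In sgNpm1A the markers with a peak were CSF1R, CD3D, COL1A1 and EPCAM, from 3 different marker groups, and none of the 6 myeloid promoters marked in sgNeg was among them. Over all promoters 7.68% had a sgNpm1A peak, and of those with a sgNeg peak 9.24% did. Counts this small thus show nothing particular to the myeloid markers in sgNpm1A.

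The HOX and MLL groups were examined because mtNPM1 leukemia depends on them. Of 21 HOXA and HOXB genes 13 had a sgNeg peak (61.9%) and 2 a sgNpm1A peak (9.52%), both near the 64.8% and 7.68% over all promoters, with flanking windows at 41.7% and 3.57%. HOXA13 led in sgNeg at 14.6-fold over 2845 bp. The 2 with a sgNpm1A peak were HOXB1, at 3.95-fold in sgNeg and 3.56-fold in sgNpm1A, and HOXB13, at 3.56-fold in sgNpm1A alone, so no HOXA promoter had one. Of 18 HOXC and HOXD genes 1 had a sgNeg peak (5.56%) and 2 a sgNpm1A peak (11.1%, 3.10 to 32.8), an interval that holds the 7.68%. HOXC8 had 2.91-fold in sgNeg and 3.31-fold in sgNpm1A, and HOXD12 had 3.31-fold in sgNpm1A alone. Among 9 genes for the HOX partners of the MEIS and PBX families, 6 had a sgNeg peak (66.7%), led by PBX3 at 10.6-fold. Only MEIS3 had a sgNpm1A peak, at 4.58-fold and with none in sgNeg. The interval of that sgNpm1A share (11.1%, 1.99 to 43.5) holds the 7.68% over all promoters.

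For the enzymes and cofactors that write, read or erase H3K4 and H3K79 methylation, 27 of 28 promoters had a sgNeg peak and 0 had a sgNpm1A peak, which allows a share of up to 12.1%. KMT2D, an H3K4 methyltransferase, had a sgNeg peak of 15.0-fold over 3894 bp. The 13 genes that the study discusses for their chromatin were chosen on these samples and are not independent evidence. All 13 had a sgNeg peak and 0 a sgNpm1A peak, against 7.69% of their flanking windows. For 0 of 13 the interval runs up to 22.8%. The shares over all promoters were 64.8% and 7.68%, so the counts of 0 in these groups show no deficit against the latter.

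Olfactory receptor genes, which are off in blood, behaved differently. Of 388 olfactory receptor genes 109 had a sgNeg peak (28.1%) and 50 a sgNpm1A peak (12.9%, 9.91 to 16.6), while their flanking windows stood at 17.7% and 7.73%. In sgNpm1A this share lay above the 7.68% over all promoters, whereas in sgNeg it lay below 64.8%. The sgNpm1A share was near the 13.1% of the CG-poorest group of coding promoters, and the CG number of the receptor genes was not compared. OR6V1 had 4.78-fold over 649 bp in sgNeg and 6.87-fold over 1322 bp in sgNpm1A, OR2AK2 had 4.99-fold and 5.85-fold, and OR10Z1 4.37-fold and 5.34-fold. The highest sgNeg fold among these receptors, 5.41, was that of OR2W3, which had 4.83-fold in sgNpm1A.

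Other tissue-restricted families varied. Of 63 defensin and bitter taste receptor genes 18 had a sgNeg peak and 11 a sgNpm1A peak (17.5%, 10.0 to 28.6), with flanking windows at 8.73% and promoters of the same chromosomes at 12%, which lies inside that interval. TAS2R39, a bitter taste receptor, had 3.33-fold in sgNeg and 4.32-fold in sgNpm1A, and the beta-defensin gene DEFB135 had 3.54-fold and 4.83-fold. Of 149 genes for keratins and keratin-associated proteins 36 had a sgNeg peak and 15 a sgNpm1A peak (10.1%, 6.20 to 15.9), an interval that holds the 7.68% over all promoters. KRTAP12-4 had 3.74-fold in sgNeg and 4.83-fold in sgNpm1A, and KRT82 had 4.07-fold in sgNpm1A alone. The clustered protocadherins, adhesion proteins of neurons, had 7 of 53 promoters with a sgNeg peak and 3 with a sgNpm1A peak (5.66%, 1.94 to 15.4), under the 7.68% over all promoters and close to their flanking 6.13%. Of these 3, PCDHAC2 reached 5.09-fold over 1630 bp in sgNpm1A with no sgNeg peak. Most of the sgNpm1A peaks behind these shares were weak, as were those over all promoters. At a q-value under 1e-05 the shares were 2.32% (9 of 388) for olfactory receptors and 0.671% for keratins. Defensins and taste receptors stood at 1.59% (1 of 63), against 1.28% over all promoters. At this limit the olfactory receptor share was above that of all promoters and the keratin share, on 1 gene of 149, was below it. These counts are small and no interval was computed for them, so they do not settle a difference from all promoters. Solute carriers stood higher than either, at 2.93% (11 of 376).

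Developmental transcription factors lay between. Of 127 genes 45 had a sgNeg peak (35.4%) and 13 a sgNpm1A peak (10.2%, 6.08 to 16.7), below the 14.4% of their flanking windows. IRX3, a homeobox factor, had the highest sgNeg fold, 14.4 over 3807 bp, and no sgNpm1A peak. TBX10, a T-box factor, had 4.16-fold in sgNeg and 6.10-fold in sgNpm1A, and IRX4 had 4.99-fold over 1023 bp and 5.60-fold over 4804 bp.

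Of the larger families, zinc finger (ZNF) genes had 362 of 509 promoters with a sgNeg peak (71.1%) and 18 with a sgNpm1A peak (3.54%, 2.25 to 5.52), under their flanking 8.15%. ZNF622 had the highest sgNeg fold, 19.6 over 3262 bp, and no sgNpm1A peak. Solute carriers, the membrane transporters, had 245 of 376 with a sgNeg peak (65.2%) and 52 with a sgNpm1A peak (13.8%, 10.7 to 17.7), close to their flanking 13.6%. SLC25A44, a mitochondrial carrier, reached 19.8-fold in sgNeg and had no sgNpm1A peak. Genes for chemokines, interleukins and their receptors had 53 of 125 with a sgNeg peak and 9 with a sgNpm1A peak (7.20%, 3.83 to 13.1). CCL28, an epithelial chemokine, had 4.37-fold in sgNeg and 5.09-fold in sgNpm1A.

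**Figure D5:**
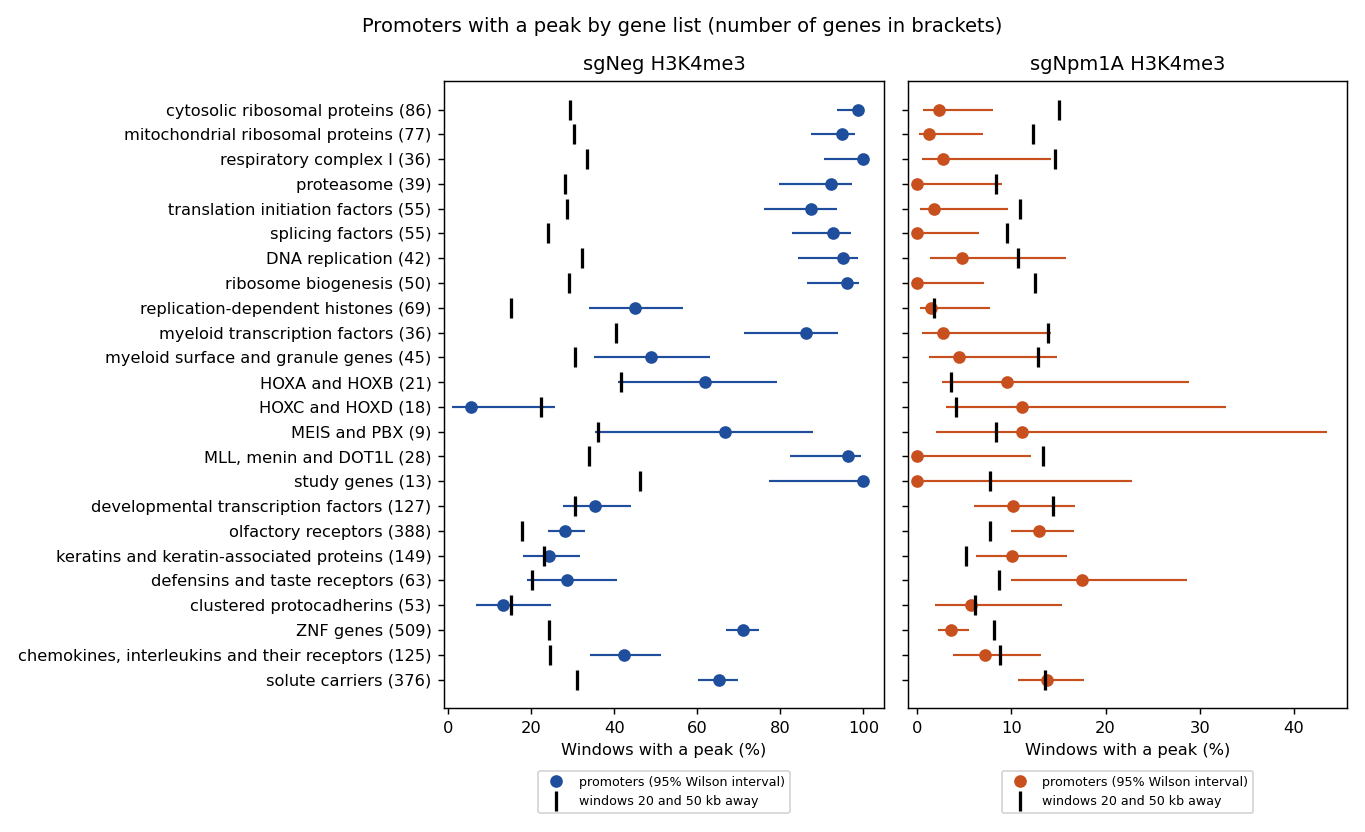
Share of promoters with a peak (percent, horizontal axis) for 24 gene lists in each library, points with 95% Wilson intervals and the list's windows 20 and 50 kb away as black bars. Housekeeping lists stand far right of their bars in sgNeg and left of them in sgNpm1A. Olfactory receptors, keratins, and defensins and taste receptors stand right of their bars in sgNpm1A. So do the small HOXA and HOXB, HOXC and HOXD, and MEIS and PBX lists, with wide intervals, and narrowly the solute carriers.

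The 10 promoters ranked highest in both lists at once were few places rather than a class. They were SLC12A7, ZNF595, PLXNA4, BRD9, TRIP13, UBE2QL1, CEP72, CD300H, LPCAT1 and GSDMD, and SLC12A7, BRD9, TRIP13, UBE2QL1, CEP72 and LPCAT1 all start in the first 10 Mb of chromosome 5. SLC12A7, a potassium-chloride cotransporter, had 11.2-fold over 914 bp in sgNeg and 7.89-fold over 3165 bp in sgNpm1A. ZNF595 had 11.2-fold over 1321 bp and 7.63-fold over 1129 bp at nearly the same place. PLXNA4, a semaphorin receptor of neurons, had 10.8-fold and 9.41-fold, the latter being the highest sgNpm1A value at any coding promoter.

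The other members of that group also had a lower fold in sgNpm1A than in sgNeg. BRD9, a bromodomain subunit of a SWI/SNF complex, and TRIP13, a mitotic checkpoint ATPase, share 1 divergent promoter, whose sgNeg peak of 3894 bp reached 16.4-fold. The sgNpm1A peak of 1070 bp there, at 6.87-fold, lay beside both starts at chr5:893613-894682, outside the printed sequences. LPCAT1, a phospholipid acyltransferase, had 18.3-fold in sgNeg and 6.10-fold in sgNpm1A. UBE2QL1 had 10.2-fold and 7.12-fold, CEP72 16.4-fold and 6.61-fold, CD300H 9.78-fold and 6.10-fold, and GSDMD, the pore former of pyroptosis, 8.32-fold and 7.38-fold. In these 10 promoters the sgNeg fold was above the sgNpm1A fold each time. They were chosen by rank within each list, and sgNeg folds within 1 kb run higher (99th percentile 13.9 against 6.44). The direction was therefore largely set by the choice. Ranks within the lists went both ways. PLXNA4 stood at percentile 99.6 in sgNeg and 99.9 in sgNpm1A, and LPCAT1 at 100 and 99. At CEP72 and LPCAT1 the peaks of the lists did not overlap.

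The 5 widest sgNpm1A peaks at promoters included those of SLC6A3, GPT, IRX4 and GPR20. SLC6A3, the dopamine transporter of neurons, had a sgNpm1A peak of 7869 bp at 6.87-fold and a sgNeg peak of 1312 bp at 6.24-fold. GPT, an alanine aminotransferase of liver, had 7087 bp and 1810 bp. For GPR20, an orphan receptor, the widths were 3852 and 1614 bp. Each was wider in sgNpm1A than in sgNeg, by the choice of the widest there. At GPT and GPR20 the peaks of the lists did not overlap, so separate peaks are compared, whereas at SLC6A3 and IRX4 they did.

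Promoters with a sgNpm1A peak alone were led by LOC105373071 and RFLNA at 5.85-fold, GPR149 at 5.60-fold, OR2M7 at 5.34-fold and PCDHAC2 at 5.09-fold. Their widths ran from 483 bp for OR2M7 to 1630 bp for PCDHAC2. None reached the median fold of 6.03 that sgNeg promoter peaks had.

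Genes that do not encode proteins were counted in the same way. Long noncoding RNA genes had a sgNeg peak within 1 kb of the start in 38.6% of 12810 records, against 24.9% in flanking windows, and a sgNpm1A peak in 10.2% against 9.92%. For transfer RNA genes, which RNA polymerase III transcribes, the sgNeg share was 43.1% of 443 against 22.9%, and the sgNpm1A share 2.93% (1.72 to 4.96) against 7.73%. Pseudogenes, mostly silent copies, had 18.5% of 12174 in sgNeg and 6.59% in sgNpm1A, both close to their flanks at 18.3% and 6.95%. MicroRNA genes had 42.0% of 1911 in sgNeg and 16.2% (14.6 to 17.9) in sgNpm1A, against flanks of 29.4% and 11.9%. The contrast seen at coding genes thus recurred at transfer RNA genes and not at pseudogenes.

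Chromosomes differed in both lists. The density of peaks per Mb relative to the mean of the 23 chromosomes was highest on chromosome 8, 3.15 in sgNeg and 3.83 in sgNpm1A. Chromosomes 1, 5, 7, 8 and 17 together hold 27% of the bases, 53.2% of sgNeg peaks and 58.8% of sgNpm1A peaks. The X chromosome had 413 sgNeg and 24 sgNpm1A peaks, a ratio of 0.0581, where the autosomes ran from 0.196 on chromosome 21 to 0.351 on chromosome 8. Promoters with a sgNpm1A peak made up 22.8% on chromosome 8 and 15.0% on chromosome 1, and 1 of 843 on X.

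The deficit at promoters did not rest on single chromosomes. The sgNpm1A share at promoters was below that of flanking windows on 21 of 23 chromosomes. The exceptions were chromosome 13, with 3.32% at promoters and 2.72% in flanks, and X, with its 1 promoter. On chromosome 8 the shares were 22.8% and 31.4%. The sgNeg share was above its flanks on all 23 chromosomes. Without chromosomes 1, 5, 7, 8 and 17, 61.7% of promoters had a sgNeg peak and 5.28% a sgNpm1A peak.

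The list values limit these comparisons. With 1 background per list, 3.81 fragments in sgNeg and 2.93 in sgNpm1A, the fold of 100% of peaks gave a whole pileup within 0.01, each plus 1 as defined above, so no local background entered. If the narrowest peak is the fragment length that the caller used, the sgNpm1A library held 0.346 times the fragments of sgNeg. The background pileup grows with fragment length as well as with depth. Depth, the precipitation, a library that is not what its label says (such as input DNA, which was not analysed here) and the guide cannot be told apart with 1 library per group.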

How the data were processed

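ChIPmentation libraries were aligned to hg38 by the authors, and the submitters' processing notes name bcl2fastq 2.17, Trimmomatic 0.33, Bowtie 1.1.2, MACS2 2.1.0 and deepTools. The deposited narrowPeak rows give a score (not used), fold enrichment as a ratio, and −log10 p-values and q-values, as the authors' peak caller wrote them for 1 library each; the largest q-value was 0.0308. No rows overlapped. Read totals are not given in the sources used here.

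Rows on chromosomes 1 to 22 and X were analysed with scripts in Python (3.11.15), using scipy (1.17.1), numpy (2.4.6) and pandas (2.3.3). Coding gene starts came from RefSeq records on GRCh38.p14 (19974 genes, 19630 with a strand, 15813 strands from the RefSeq promoter table and 3817 by symbol from a GRCh37 annotation, from which no coordinate was used). The strongest overlapping peak stood for a promoter, so a gene's values can come from separate peaks in each list, as at TAS2R39 and CCL28. Class bases end at the last listed peak or gene. Merging, distances and windows were checked on made-up peaks.

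Named genes are, per gene list, the highest sgNeg promoter and up to 3 sgNpm1A promoters by fold, plus the 10 best in both lists, the 5 widest sgNpm1A promoters and NPM1. The members and lists were chosen with earlier results of these data known. Flanking windows, the 5 strongest promoters in sgNpm1A alone and the first 10 Mb of chromosome 5 were chosen after the values were seen. The H3K27Ac lists were not used. Some genes that this rule names are not reported here.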

Additional observations from a re-analysis of the deposited data

How the results depend on the processing

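The ratios of sgNpm1A to sgNeg peak numbers are given from within 1 kb outward (0.100, 0.262, 0.308 and 0.321 in the report), and the promoter shares as sgNeg, sgNpm1A and sgNeg promoters kept in sgNpm1A (64.8%, 7.68% and 9.24%). At a q-value under 0.01 the ratios were 0.1, 0.286, 0.337 and 0.354 and the shares 63.2%, 7.38% and 8.79%. At a q-value under 1e-05 the ratios were 0.025, 0.159, 0.204 and 0.215 and the shares 50.2%, 1.28% and 1.76%. At a fold of at least 4 the ratios were 0.0563, 0.493, 0.663 and 0.711 and the shares 48.1%, 2.68% and 2.73%. With the 20000 peaks of lowest p-value in each list the ratios were 0.0454, 0.95, 1.6 and 1.8 and the shares 40.9%, 1.71% and 1.18%. With peaks of at least 300 bp the ratios were 0.131, 0.792, 1.06 and 1.2 and the shares 50.3%, 6.44% and 6.05%. With the starts of every gene record the ratios were 0.166, 0.287, 0.311 and 0.325 and the shares 44.3%, 8.34% and 14.1%. Without chromosomes 1, 5, 7, 8 and 17, a setting chosen after seeing the data, the ratios were 0.073, 0.233, 0.286 and 0.281 and the shares 61.7%, 5.28% and 5.75%. With any listed start, also chosen after seeing the data, the ratios were 0.112, 0.27, 0.31 and 0.322 and the shares 68.5%, 9.51% and 11.4%. With distance from the summit the ratios were 0.0855, 0.253, 0.309 and 0.321. With 500 bp on either side the shares were 57.6%, 4.81% and 5.5%. With 2 kb on either side the shares were 71.7%, 13% and 15.9%. The ratios at 5 to 50 kb and beyond 50 kb thus passed 1 in the lists of equal length and among peaks of at least 300 bp, and a list of fixed length sets the overall ratio to 1 by construction. The limit of 300 bp may not act alike on both lists, which start at widths of 110 bp (sgNeg) and 245 bp (sgNpm1A). The ratio within 1 kb was the lowest of the 4 in every setting run, and leaving rows unmerged changed no value. Over the 24 gene lists, a q-value under 1e-05 lowered the sgNeg share in 22 and the sgNpm1A share in 18, and the 2 kb window raised it in 15 for each library. No paired analysis was possible because each group has 1 library, and leaving out a library was not possible for the same reason.

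Peak calls carry no value below the caller's threshold, so the lists give no signal for a promoter without a peak. Read totals and input are not used here, so depth is known only as the inferred fragment ratio of 0.346, which assumes that the narrowest peak is the fragment length.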

Other observations

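The strongest peaks of both lists lay away from coding gene starts. At chr3:93470362-93470796, beyond 50 kb from a coding gene and with no gene record, the fold was 102.1 in sgNeg and 122.9 in sgNpm1A, with pileups of 490 and 482. On chromosome 1 a sgNpm1A peak of 5833 bp at chr1:629088-634920 reached 196.9-fold, where sgNeg had 42.0-fold over 3336 bp. That stretch holds nuclear copies of mitochondrial genes, among them MTND1P23, MTND2P28, MTCO1P12, MTATP6P1 and MTCO3P12. Of 466 records of this kind, 65 overlapped a sgNeg peak (13.9%) and 39 a sgNpm1A peak (8.37%). Within 1 kb of the starts of every gene record the shares were 44.3% and 8.34%, and for pseudogenes 18.5% and 6.59%. Overlap of a record and of a window around its start may not be alike. In each list 12 of the 466 records had at least 8-fold, under 7 sgNeg peaks and 3 sgNpm1A peaks, since a wide peak covers several records. At 1 to 5 kb the strongest sgNpm1A peak, 14.2-fold over 2427 bp, lay in SLC6A19 on chromosome 5, where sgNeg had 15.4-fold.

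Peaks were dense in some stretches of both lists. Of 303 bins of 10 Mb, the fullest in sgNpm1A was the first 10 Mb of chromosome 5, with 332.9 peaks per Mb against a median bin of 17.8, and sgNeg had 790.6 there against 69.1. In that bin 27 of 42 coding promoters had a sgNpm1A peak (64.3%), still under the 73.8% of their flanking windows. Over the first 50 Mb of chromosome 5 the sgNpm1A density was 202.9 per Mb and over the rest 19.3. On chromosome 17 it was 27.8 in the first 40 Mb and 94.7 beyond. The part of DNA copy number in these densities was not tested.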
